A study of Arabidopsis thaliana with 12 samples.

Results

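Dark-grown Arabidopsis thaliana seedlings of 2 ethylene-response mutants, ein5 and ein2, were compared directly in hydrocarbon-free air, with no wild type in the comparison. The 4 arrays were chosen by their titles: 2 of ein5 in air and 2 of ein2 in air, out of 12 in the series. All 22746 probe sets of the ATH1 expression array were used, and every difference below is ein5 minus ein2. The other 8 arrays held the same mutants after ethylene (10 ppm for 4 hours, 2 arrays each) and wild-type Columbia in air and in ethylene (2 arrays each).

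Both mutants are in the Columbia background, and the series text names the alleles as ein2-5 and ein5-1. All seedlings were grown in the dark from cold-treated seed, and the air groups had no ethylene treatment. The labels disagree on growth: ein2 air replicate 1 is described as 3 days old and grown at 24 °C, and the other 11 arrays as 5 days in the dark at 25 °C. The series text gives 3 days for the whole experiment, and the text shared by the 11 arrays speaks of ethylene even where the treatment is labelled as none. Groups were therefore taken from the titles, and the call totals and the seed gene counts are also given without ein2 air replicate 1. Without that array 42 of the 61 named genes called in air lost their call, and none changed direction. Separate cultures for the 2 arrays of a group are not stated, so the p-values measure the spread between these arrays, which may be technical.

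Ethylene is a gaseous plant hormone that, in dark-grown seedlings, shortens the hypocotyl and root and tightens the apical hook. Its receptors repress the pathway when no gas is bound. EIN2 is a membrane protein that carries the signal from the receptors towards the nucleus, where the transcription factor EIN3 and its relatives act. EIN3 protein is removed by F-box proteins. EIN5 is, by the series title, an exoribonuclease, an enzyme that degrades RNA from the end of the strand, and loss of either gene weakens the response to ethylene.

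Levels are given as scaled intensity, the brightness of a probe set after the arrays were brought to a common median. Such levels can be compared between arrays for 1 probe set, but not between probe sets. Differences are on the log2 scale after adding 16 to each scaled intensity, which understates the change of dim probe sets, and folds are taken from the same scale. Each is given ± its standard error (SE) from limma, a linear model fitted to all probe sets on all 12 arrays. A probe set was called when its p-value, adjusted over all 22746 probe sets by the Benjamini-Hochberg method, was under 0.05. All adjusted p-values are from that two-sided test.

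The arrays' deposited medians ran from 922 to 1039, and between 3.86% and 6.16% of probe sets were at or under an intensity of 16. The 2 ein2 arrays in air differed by a median of 0.188 (absolute log2 difference) and the 2 ein5 arrays in air by 0.205, both less than the 2 wild-type arrays in air (0.249). The 2 wild-type arrays in ethylene, which also enter the fit, differed the most (0.323), and their correlation of 0.960 was below the highest with an array of another group (0.970). The same held for the 2 ein2 arrays in ethylene, at 0.966 against 0.968. PORB, a chlorophyll synthesis enzyme abundant in etiolated seedlings, read 37706 and 33636 in ein2 and 39073 and 43561 in ein5, with no call (adjusted p = 0.686). An extraction note in the labels names mature leaves as the tissue, against the seedlings of the other labels. None of the 8 measured nuclear photosynthesis genes was called, and their median difference was 0.05.

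In air, 722 of 22746 probe sets were called, which is 3.17%. Of these, 278 (1.22%) were higher in ein5 and 444 (1.95%) were higher in ein2. The median difference over all probe sets was 0.00 and the median SE 0.23, and 4031 probe sets (17.7%) had an unadjusted p under 0.05. Past a 2-fold difference there were 89 probe sets higher in ein5 (0.391%) and 126 lower (0.554%). Genes of the maturing seed, among them LEA, oil body and storage protein genes, were called higher in ein2. The ethylene-responsive genes RTE1 and ARL were called higher in ein5.

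The balance of the 2 directions depended on how the arrays were scaled. Of the calls, 38.5% were higher in ein5 with median scaling, 47.9% with quantile normalization (370 higher and 402 lower) and 53.7% with the values as deposited (396 higher and 341 lower). The number of calls rested on both replicates of each group. It was 151 without ein2 air replicate 1 and 158 without ein2 air replicate 2, and 299 and 117 without ein5 air replicates 1 and 2. Leaving out wild-type ethylene replicate 1 or 2 gave 1245 or 1246.

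**Figure D1:**
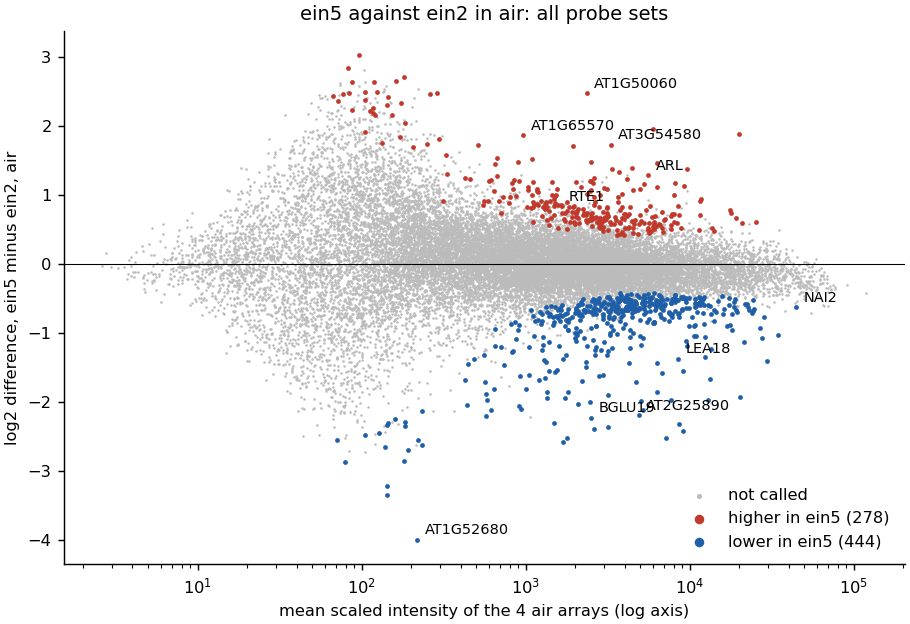
Each point is 1 probe set, with its mean scaled intensity over the 4 air arrays on a log axis and its log2 difference, ein5 minus ein2, on the vertical axis. The 278 probe sets called higher in ein5 are red and the 444 called lower are blue. Grey points with differences as large as the called ones lie mostly at low intensity.

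Brighter probe sets were called more often. Of 5674 probe sets with a mean scaled intensity of 3000 or more, 1.94% were higher in ein5 and 4.78% lower. Of 6775 below 300, 0.458% were higher and 0.266% lower. Calls came from all 5 nuclear chromosomes: among probe sets with a single gene, the share called lower ran from 1.36% on chromosome 2 to 2.02% on chromosome 5, and the share called higher from 0.798% on chromosome 3 to 1.52% on chromosome 5.

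The genes higher in ein2 included many of the maturing seed. Late embryogenesis abundant (LEA) proteins are hydrophilic proteins that build up as the seed dries and are lost as the seedling grows. Oleosins coat the oil bodies that hold the seed's fat, and storage globulins of the cupin fold fill its protein storage vacuoles. In bulk seedlings, fewer cells of a type and less RNA per cell cannot be told apart.

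Among 37 measured LEA loci, 16 were lower in ein5 and 2 higher, beside 1.95% and 1.22% of all probe sets, and 19 were not called. Their median difference was -1.23, against 0.00 over all probe sets. This list of loci was drawn up from general knowledge of the family after earlier results were known, so its direction is no independent evidence. A narrower list by gene name held 10 genes, of which 4 were lower and none higher, with a median of -0.86. That count was 2 without ein2 air replicate 1 and 2 without ein5 air replicate 2. Without ein2 air replicate 1, the array with the differing age label, 10 LEA loci were lower and 2 higher. Without ein2 air replicate 2 the counts were 10 and 1. Leaving out ein5 air replicate 2 gave 9 lower and 2 higher.

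AT2G25890, an oleosin-type oil body protein, differed the most clearly of the seed genes. Its scaled intensity was 8035 and 8050 in ein2 and 1885 and 1606 in ein5, a difference of -2.20 ± 0.16 (4.59-fold higher in ein2, limma adjusted p = 8.02e-06). The ein5 arrays lay below the wild-type arrays in air (2047 and 2216), and the ein2 arrays lay far above both groups.

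A further oil body locus, AT3G01570, read 4286 and 4444 in ein2 and 2318 and 1959 in ein5, a difference of -1.03 ± 0.20 (adjusted p = 0.0152). Here ein5 did not sit at the wild-type level, which was 740 and 1096. OLEO3, by contrast, read 5958 and 5887 in ein2 and 6125 and 6199 in ein5, with a difference of 0.06 ± 0.16. The fourth measured member, AT3G18570, was dim and uneven between the ein5 arrays (216 and 38) and was not called. Over the 4 members, 2 of them called lower beside 1.95% of all probe sets, the median difference was -1.19. Without ein2 air replicate 1, ein2 air replicate 2 or ein5 air replicate 2 the count was 1, as the call on AT3G01570 was lost.

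Of 5 measured storage protein genes, 2 were lower in ein5, beside 1.95% of all probe sets, and the median was -0.51. The other way went 1 of the 5, with a difference of 1.03 that was not called. Leaving out any 1 of the 4 air arrays reduced that count to 0. AT4G36700, a cupin locus, read 869 and 942 in ein2 against 203 and 265 in ein5, a difference of -1.89 ± 0.40 (adjusted p = 0.0219). For AT2G28490, also a cupin locus, the values were 2668 and 2662 against 1228 and 1419, 2.01-fold higher in ein2 with an SE of 0.25 on the log2 scale (adjusted p = 0.0435), and the wild-type arrays read 306 and 500. The call on AT2G28490 was lost under 12 of 20 alternatives, although its difference stayed between -1.11 and -0.90. PAP85, a vicilin-like storage globulin, read 2018 and 2312 in ein2 and 1515 and 1714 in ein5 and was not called (adjusted p = 0.491).

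**Figure D2:**
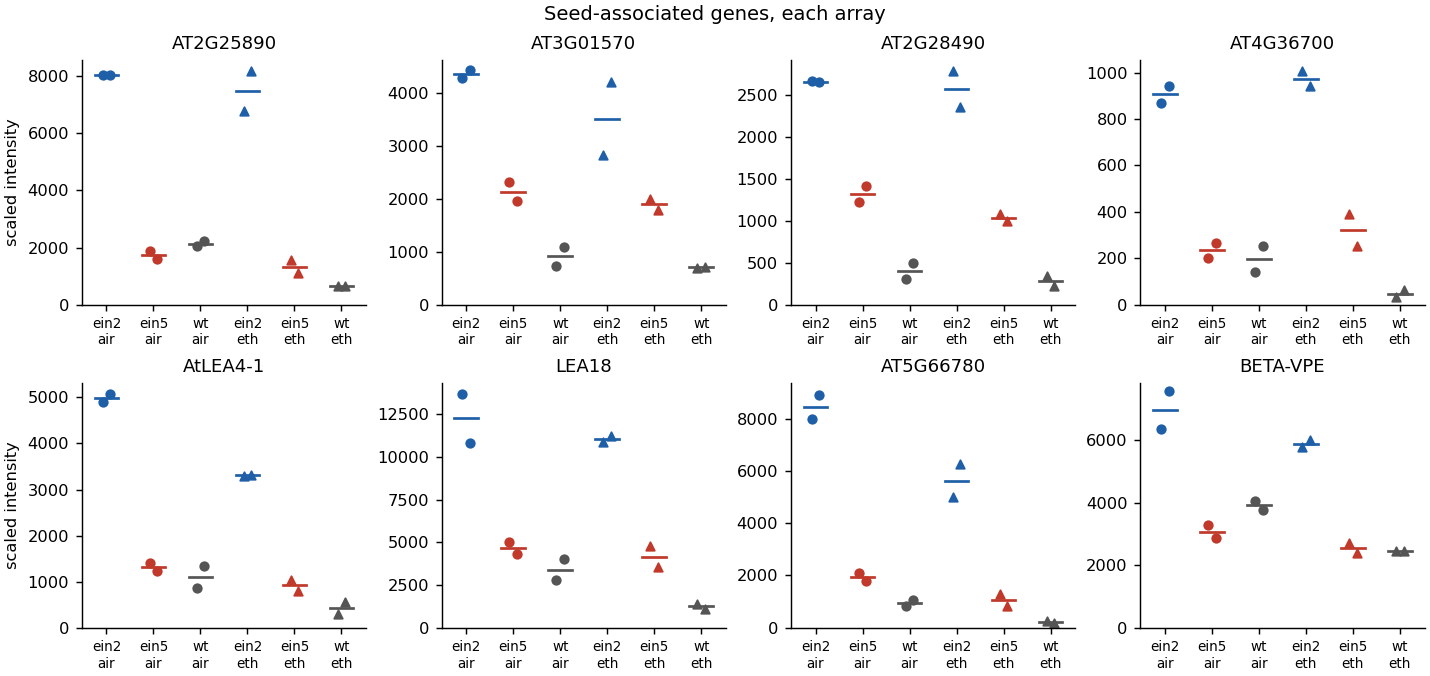
Scaled intensity of 8 seed-associated genes on all 12 arrays, 1 point per array, with the mean of each group as a bar and an axis from 0 in each panel. Circles are air and triangles ethylene. In every panel both ein2 air arrays lie above both ein5 air arrays, and the position of wild type relative to ein5 varies from gene to gene.

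The brighter LEA genes were well separated between the mutants. AtLEA4-1 read 4902 and 5071 in ein2 and 1409 and 1240 in ein5, a difference of -1.90 ± 0.25 (adjusted p = 0.00106). LEA18 read 13700 and 10848 against 5049 and 4339, a difference of -1.38 ± 0.19 (adjusted p = 0.00138). In both genes the lower ein2 array was more than 2-fold above the higher ein5 array.

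LEA4-5 read 6411 and 6056 in ein2 and 2678 and 1956 in ein5, a difference of -1.44 ± 0.22 (adjusted p = 0.0031). The gene named LEA in the annotation (AT2G21490) read 2148 and 2125 against 585 and 499, a difference of -1.95 ± 0.41 (adjusted p = 0.0219). AT5G66780 read 8003 and 8925 against 2092 and 1799, a difference of -2.11 ± 0.23 (adjusted p = 0.000224). For all 3 genes the 2 mutants were clearly apart, and the wild-type arrays lay closer to ein5 than to ein2.

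AT3G17520 had the smallest adjusted p among the LEA loci, 1.55e-05, at 12681 and 11832 in ein2 and 3530 and 2745 in ein5 (-1.97 ± 0.16). AT3G02480 was the brightest of those called, with 40958 and 45354 against 18000 and 14709 (-1.40 ± 0.19, adjusted p = 0.00109). M17, a LEA-type gene, read 3909 and 4022 against 1045 and 918, while wild type read 209 and 284. Thus ein5 lay between wild type and ein2 for M17, a pattern also seen at AT3G01570 and AT2G28490.

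The largest difference of any LEA locus was at AT3G22490, -2.88 ± 0.59, but this gene was dim: 143 and 159 in ein2 and 7 and 6 in ein5. AT3G53040 (2844 and 2914 against 591 and 370) and AT4G21020 (4241 and 4474 against 1009 and 660) followed, at -2.58 ± 0.42 and -2.39 ± 0.30.

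The family did not move as a whole. Of the 37 loci, 31 were on the ein2 side and 6 on the ein5 side, where the largest difference was 1.99 and was not called. Among the 19 not called, COR47, a dehydrin, read 55888 and 55687 in ein2 and 44164 and 43996 in ein5 (adjusted p = 0.394), and LTI30, also a dehydrin, read 11769 and 10977 against 11814 and 9743 (adjusted p = 0.856). The 2 LEA loci higher in ein5 were AT5G60530, at 1407 and 1676 in ein2 and 3905 and 3445 in ein5 (1.25 ± 0.14, adjusted p = 0.000315), and AT4G38410, at 612 and 450 against 1249 and 1030 (1.09 ± 0.19, adjusted p = 0.00752). These 2 were named because they were the only exceptions in direction among the called loci.

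Summed over the 37 LEA probe sets, scaled intensity was 290653 and 293370 on the ein2 air arrays and 181283 to 196717 on the ein5 air arrays. The wild-type air arrays gave 182401 to 188615. For the 5 storage protein probe sets the sums were 5848 to 6030 in ein2, 3152 to 3700 in ein5 and 762 to 1315 in wild type. The 4 oil body probe sets gave 18526 to 18676, 9803 to 10543 and 8503 to 9149. Such sums are weighted to the brightest probe sets, among them those of COR47 and OLEO3, which were not called. No storage or oil body member was at or under 16 on both arrays of any group.

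Over all 37 measured LEA loci, the ein2 array labelled as 3 days old was above the other ein2 array in 20, with a median log2 difference between the 2 of 0.01. The part of seedling age and of ungerminated seed in these differences was not tested.

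Enzymes that act in the seed showed the same direction in part. Of 4 vacuolar processing enzymes, proteases that mature storage proteins, 2 were lower in ein5, beside 1.95% of all probe sets. That list was added after the values were seen, so its count is no independent evidence. BETA-VPE, the seed form, read 6369 and 7568 in ein2 and 3292 and 2864 in ein5 (-1.17 ± 0.12, adjusted p = 0.000147). DELTA-VPE, known from the seed coat, read 1546 and 1503 against 692 and 768 (-1.05 ± 0.22, adjusted p = 0.021), and its call was lost on leaving out any 1 of the 4 air arrays. GAMMA-VPE, the vegetative form, was not called, at 19085 and 18930 against 17646 and 16500.

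None of the 3 measured members of the list of enzymes that turn seed oil into sugar was called. ICL, the isocitrate lyase of the glyoxylate cycle, read 74540 and 77519 in ein2 and 57864 and 60794 in ein5 (-0.36 ± 0.27, adjusted p = 0.545). All 3 measured members of that list were on the ein2 side, with a median of -0.38, but so were the 6 reference genes, with a median of -0.27. PPDK, a pyruvate-phosphate dikinase that acts in the same conversion, is outside the list and was lower in ein5, at 5890 and 5489 against 2899 and 2913 (-0.96 ± 0.16, adjusted p = 0.00641).

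BGLU19, a beta-glucosidase, read 4256 and 4012 in ein2 and 828 and 907 in ein5 (-2.23 ± 0.26, adjusted p = 0.000313). It was the only one of 21 measured beta-glucosidases to be called, beside 1.95% of all probe sets called lower. PRX52, a class III peroxidase of the cell wall, read 949 and 1062 against 215 and 224 (-2.12 ± 0.46, adjusted p = 0.0269). AT5G64120, also a class III peroxidase, read 7012 and 7020 against 3356 and 3301 (-1.07 ± 0.11, adjusted p = 0.000177). Of 6 numbered peroxidases measured these 2 were called lower, beside 1.95% of all probe sets, and the other 4 were not called. All 6 were on the ein2 side, but so were the 6 reference genes. The beta-glucosidase and numbered peroxidase lists were added after the values were seen, so their counts are no independent evidence.

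Several of the largest differences were at loci that the annotation tables give no symbol. AT5G07330 read 5167 and 5470 in ein2 and 1072 and 974 in ein5 (-2.36 ± 0.21, adjusted p = 4.19e-05). AT1G14930 read 2477 and 2507 against 412 and 586 (-2.31 ± 0.26, adjusted p = 0.000252). AT5G10120 read 1474 and 1593 against 359 and 329 (-2.11 ± 0.27, adjusted p = 0.000738). In each the 2 arrays of a genotype were close together relative to the gap between genotypes.

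The largest difference of all named genes was at AT1G52680, with 428 and 422 in ein2 and 9 and 14 in ein5 (16-fold higher in ein2, with an SE of 0.67 on the log2 scale, adjusted p = 0.00612). Because the ein5 values lay near the floor of the array, the size of that difference depends on the added constant. EFR, the receptor for a bacterial elongation factor peptide, was dim too, at 162 and 387 against 10 and 15 (-3.23 ± 0.67, adjusted p = 0.02). Of the 15 leading genes on the ein2 side, 6 had a mean under 500 in ein2.

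A total of 24 called genes carried a symbol but belonged to no list and were not among the leading genes, 19 of them lower in ein5 and 5 higher. ChiC, a chitinase, had the largest gap among them relative to its error: 14294 and 12932 in ein2 and 4946 and 4345 in ein5 (-1.55 ± 0.13, adjusted p = 2.7e-05). ATOEP16-2, a plastid envelope protein found in seeds, read 1471 and 1714 against 471 and 550, and 155 and 88 in wild type. BZIP53, a transcription factor known to activate seed maturation genes, read 13392 and 12002 against 9359 and 8489 (-0.51 ± 0.11, adjusted p = 0.0283). NAI2, needed to form ER bodies, was among the brightest of the called genes, at 51686 and 56785 against 35789 and 34211 (-0.63 ± 0.15, adjusted p = 0.0427). These 4 were chosen from the 24 after their values were seen, and all 4 were lower in ein5. Of the 5 higher in ein5, PDF2.5 had the smallest adjusted p. It read 1721 and 1476 in ein2 and 3139 and 3627 in ein5 (1.07 ± 0.12, adjusted p = 0.000313), with wild type at 2809 and 2562.

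On the ein5 side stood 2 genes known to be raised by ethylene. RTE1, a membrane protein that promotes signalling by the ethylene receptor ETR1, read 1182 and 1179 in ein2 and 2277 and 1966 in ein5, a difference of 0.83 ± 0.12 (1.78-fold, adjusted p = 0.00168). ARL, an ARGOS-like protein that promotes cell expansion, read 3363 and 3122 against 7401 and 8458, a difference of 1.28 ± 0.12 (2.43-fold, adjusted p = 4.19e-05). Both ein5 arrays lay above both ein2 arrays, but the arrays of the 2 genotypes were apart at all 722 called probe sets. For ARL the ein5 values overlapped those of wild type in air (7905 and 7981), and for RTE1 they were lower (2912 and 2613 in wild type).

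Of the 3 measured members of the list of ethylene-induced genes, RTE1 and ARL were the 2 called, beside 1.22% of all probe sets called higher. The third, PDF1.2, a defensin, was dim (111 and 116 in ein2, 82 and 76 in ein5) and not called. Of the 4 measured members of the ethylene pathway list, RTE1 was the 1 called. Of the 13513 probe sets with 1 gene, 11933 carried a locus number only, so further pathway genes may lie outside that list. EIN3 read 9225 and 9471 in ein2 and 12646 and 11658 in ein5, so the groups did not overlap, but its difference of 0.38 ± 0.12 did not pass the test (adjusted p = 0.113). Over all probe sets, 53.0% had both arrays of 1 genotype above both of the other. RTH, an RTE1 homologue, read 5551 and 4530 against 5122 and 3677 and was not called (adjusted p = 0.562). AT1G12010, an ACC oxidase locus of ethylene synthesis, read 1211 and 1639 against 1605 and 1263 (0.01 ± 0.21).

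**Figure D3:**
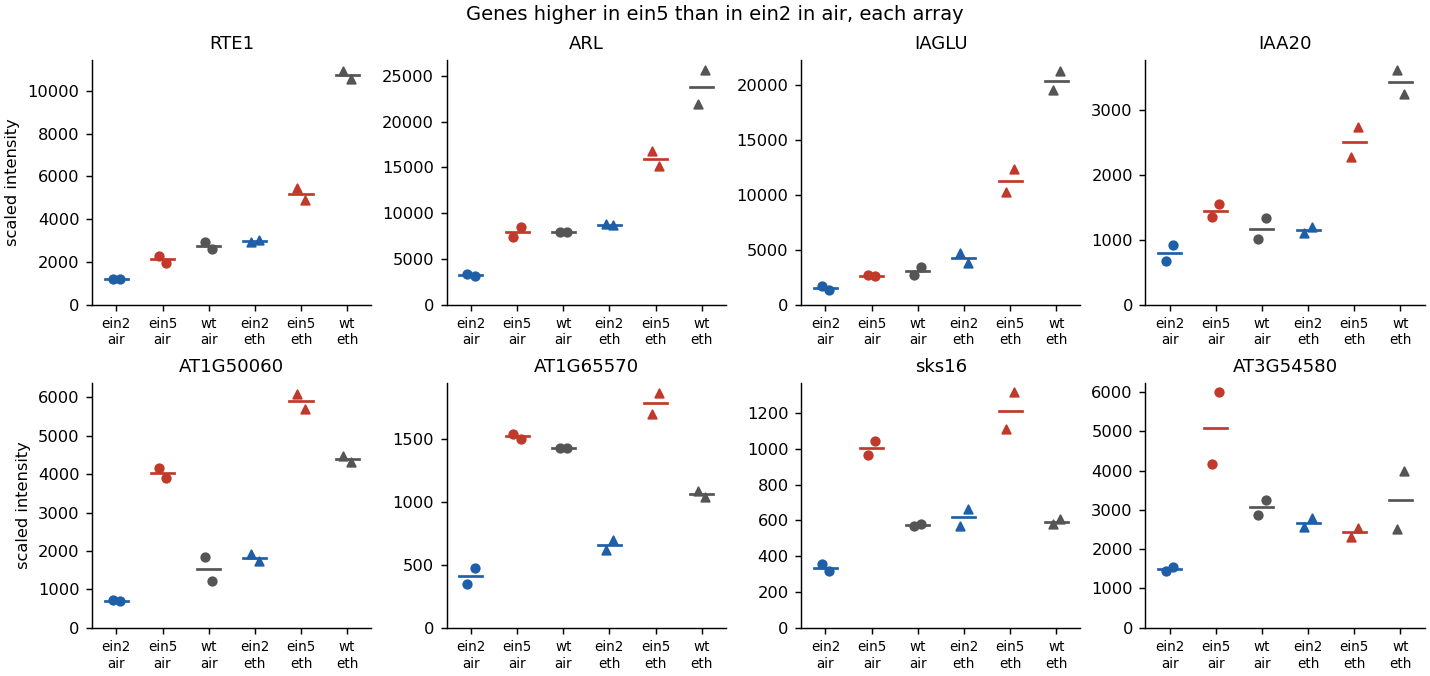
Scaled intensity of 8 genes that were higher in ein5 than in ein2 in air, 1 point per array with group means as bars, each axis starting at 0. Circles are air and triangles ethylene. RTE1, ARL, IAGLU, IAA20, AT1G50060, AT1G65570 and sks16 kept ein5 above ein2 in ethylene, while AT3G54580 did not.

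The gene that differed most clearly on this side was AT1G50060, which has no symbol in the tables. It read 722 and 696 in ein2 and 4153 and 3890 in ein5, a difference of 2.48 ± 0.16 (5.57-fold, adjusted p = 6.05e-06), and 1845 and 1206 in wild type. Thus ein5 lay above wild type and ein2 below it. AT1G65570 read 346 and 476 in ein2 and 1542 and 1501 in ein5 (1.87 ± 0.19, adjusted p = 9.64e-05), with wild type at 1428 and 1425. AT1G72290 read 303 and 165 against 670 and 899 (1.72 ± 0.26, adjusted p = 0.00263).

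Of the 15 leading genes on the ein5 side, 11 had a mean scaled intensity under 500 in ein5 and 10 a mean under 100 in ein2. CRR22, a pentatricopeptide repeat protein of chloroplast RNA editing, is an example: 49 and 43 in ein2 and 252 and 269 in ein5 (2.16 ± 0.50, adjusted p = 0.0323). Its call was lost under 7 of 20 alternatives. The call on AT3G62960, from 53 and 14 to 194 and 207, was lost under 14.

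Cell wall genes were found on both sides. AT3G54580 read 1456 and 1551 in ein2 and 4174 and 5995 in ein5 (1.72 ± 0.20, adjusted p = 0.000313). HRGP1, a hydroxyproline-rich glycoprotein, read 5576 and 5903 against 10916 and 14560 (1.13 ± 0.27, adjusted p = 0.039). Its locus number, AT3G54590, is next to that of AT3G54580, and the name of its probe set marks probes shared with similar sequences, so the 2 values may not be separate.

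Among 4 measured SKU5-similar proteins, multicopper oxidase-like proteins of the cell surface, 2 were higher in ein5, beside 1.22% of all probe sets. That list was added after the values were seen, so its count is no independent evidence. For sks16 the values were 355 and 317 in ein2 and 965 and 1045 in ein5 (1.54 ± 0.22, adjusted p = 0.00165). For sks15 they were 710 and 609 against 1378 and 1419 (1.07 ± 0.25, adjusted p = 0.0377), a call lost under 9 of 20 alternatives, among them each of the 8 mutant arrays left out. In both sks genes wild type read closer to ein2 than to ein5, at 567 and 578 for sks16 and 657 and 613 for sks15. SKU5 itself was not called, at 21766 and 22106 against 20242 and 16024.

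Of 29 expansin and XTH genes, whose products loosen or remodel the wall, 1 was higher and 3 were lower in ein5. The shares over all probe sets were 1.22% and 1.95%. The median of the 29 was -0.02. XTH32 read 5029 and 6699 in ein2 and 9464 and 9384 in ein5 (0.70 ± 0.13, adjusted p = 0.0114). XTH20 read 1758 and 1449 against 845 and 887 (-0.87 ± 0.19, adjusted p = 0.0275). The other 2 lower were EXPB3 (-0.73) and EXGT-A3 (-0.49), whose calls were lost under 11 and 13 of 20 alternatives. In the pectin methylesterase list 1 of 5 was lower, ATPMEPCRB (-0.54 ± 0.11, adjusted p = 0.0188), and among 25 TBL proteins 1 was lower, TBL45 (-0.56 ± 0.13, adjusted p = 0.0415). Both counts stand beside the same 1.95% of all probe sets. The call on TBL45 was lost under 11 of 20 alternatives, both other scalings included.

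Of 14 measured auxin genes, 2 were higher and 2 lower in ein5, beside 1.22% and 1.95% of all probe sets, with a median of 0.19. IAGLU, which joins glucose to auxin, read 1745 and 1303 in ein2 and 2665 and 2605 in ein5 (0.80 ± 0.16, adjusted p = 0.0173). IAA20, a transcriptional repressor of the auxin response, read 681 and 926 against 1354 and 1548 (0.85 ± 0.19, adjusted p = 0.0268). GH3.3, which joins amino acids to auxin, was on the other side, at 3148 and 2978 against 1491 and 1405 (-1.07 ± 0.18, adjusted p = 0.00485). So was IAA29, at 1744 and 1574 against 952 and 1090 (-0.69 ± 0.17, adjusted p = 0.0432). The call on IAA29 was lost under 11 of 20 alternatives, on IAA20 under 5, on IAGLU under 4 and on GH3.3 under 3.

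**Figure D4:**
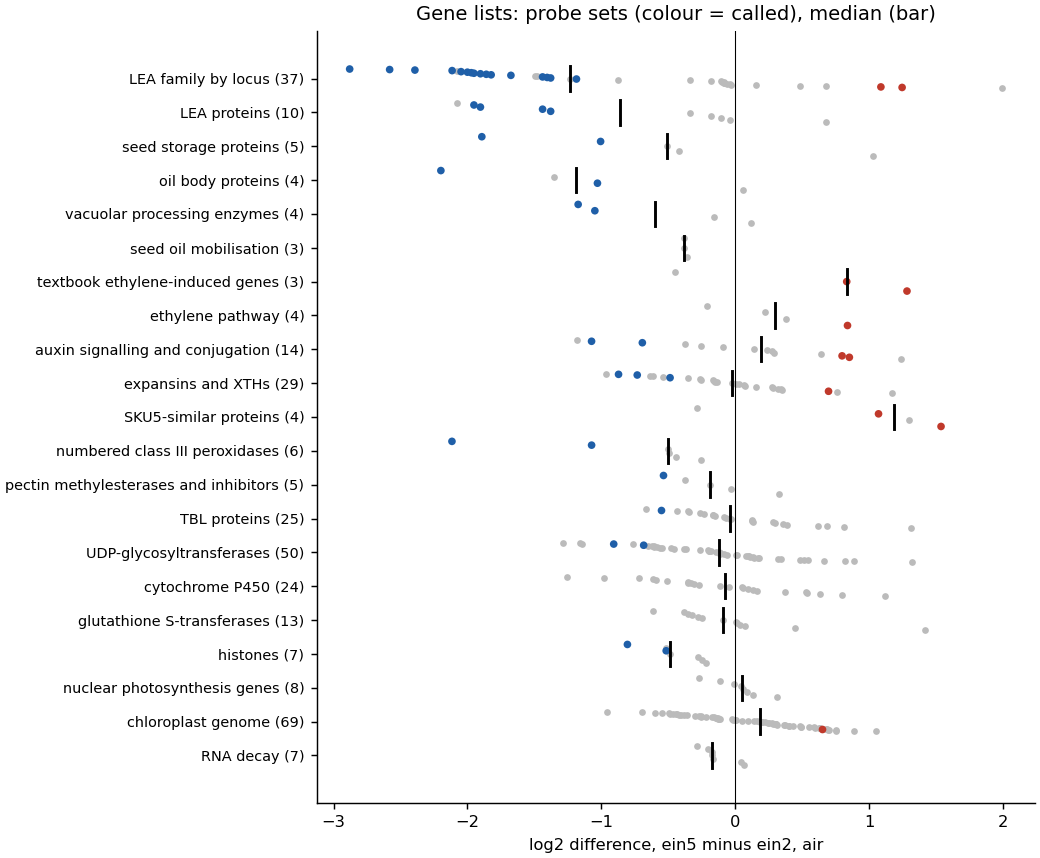
Log2 differences, ein5 minus ein2 in air, of the measured probe sets of 21 gene lists, with the number measured in brackets and the list's median as a black bar. Red and blue points were called higher and lower in ein5, and grey points were not called. The medians of the LEA, oil body and storage lists lie to the left of 0, and each of these lists has at least 1 member to the right. The list of ethylene-induced genes has its 2 called members on the right.

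The RNA decay, microRNA target and chloroplast genome lists held at most 1 called member each. The cytosolic RNA decay machinery had no called member among 7, with a median of -0.17: LSM1A, part of the complex that promotes decapping, read 5052 and 5664 in ein2 and 5796 and 5419 in ein5 (0.07 ± 0.15). None of 3 microRNA target genes was called. APS4, an ATP sulfurylase, read 26053 and 25109 against 21528 and 19123 (adjusted p = 0.296). Of 69 genes of the chloroplast genome 1 was called higher in ein5, beside 1.22% of all probe sets. It was the ribosomal protein gene rpl32 (4944 and 6110 against 8205 and 9051, 0.65 ± 0.15, a call lost under 7 of 20 alternatives).

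Of 50 UDP-glycosyltransferases 2 were lower in ein5, beside 1.95% of all probe sets. They were UGT76B1 (14820 and 12950 against 8240 and 6611, -0.91 ± 0.18) and UGT71C1 (-0.68 ± 0.17, a call lost under 9 of 20 alternatives). Among 7 histone genes 2 were lower, the linker-histone-like HON4 (-0.80 ± 0.19) and the H2B gene HTB4 (-0.52 ± 0.12), and all 7 were on the ein2 side. The HON4 call was lost under 9 of 20 alternatives and the HTB4 call under 11, beside a background of 1.95% called lower. No call was made among 24 cytochromes P450, 13 glutathione S-transferases, 8 defence and jasmonate genes, 2 flavonoid genes, 3 gibberellin genes or 2 root hair genes. The 6 reference genes, none of them called, had differences from -0.34 to -0.10, all on the ein2 side, and a median of -0.27. TUB1, a tubulin, read 26962 and 26997 against 21674 and 20926 (-0.34 ± 0.14, adjusted p = 0.216).

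The same genotypes after ethylene, on 4 arrays that the air comparison did not use, gave 2318 calls (10.2%), 642 higher in ein5 (2.82%) and 1676 lower (7.37%). Of the 278 probe sets higher in ein5 in air, 230 (82.7%) had the same sign in ethylene, against 44.7% of all probe sets. A call in the same direction was made for 102 of them (36.7%), and 2 were called the opposite way. Of the 444 lower in air, 420 (94.6%) had the same sign, against 55.3% of all, 302 (68.0%) were called the same way and none the opposite way. The 2 gases share 1 fit, and so 1 estimate of the spread. The shares of all probe sets were not matched for level, and 271 of the 444 had a mean scaled intensity of 3000 or more. Over both gases the scaling factors ran from 0.949 to 0.976 on the ein5 arrays and from 1.01 to 1.07 on the ein2 arrays. The part of level and scaling in the shared sign was not tested. Of the ethylene calls 27.7% were higher in ein5 with median scaling, 46.7% with quantile normalization (995 higher and 1136 lower) and 56.6% with the values as deposited (1310 higher and 1003 lower).

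The median difference of the probe sets higher in ein5 was 0.82 in air, where they were chosen, and 0.41 in ethylene. For those lower it was -0.71 and -0.73. Among the seed genes, AT2G25890 differed by -2.49 in ethylene (adjusted p = 2.35e-06), where the ein2 arrays read 6793 and 8192 and the ein5 arrays 1576 and 1094. Of the 37 LEA loci, 14 were lower and 2 higher in ein5 in ethylene, beside 7.37% and 2.82% of all probe sets. M10, a LEA-type gene, differed by -1.19 in air (adjusted p = 0.0264) and by 0.60 in ethylene, where it was not called (adjusted p = 0.173). RTE1 and ARL were again higher in ein5, by 0.79 and 0.86 (adjusted p = 0.00104 and 0.000481). EIN3 differed by 0.35 and again was not called (adjusted p = 0.0872).

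**Figure D5:**
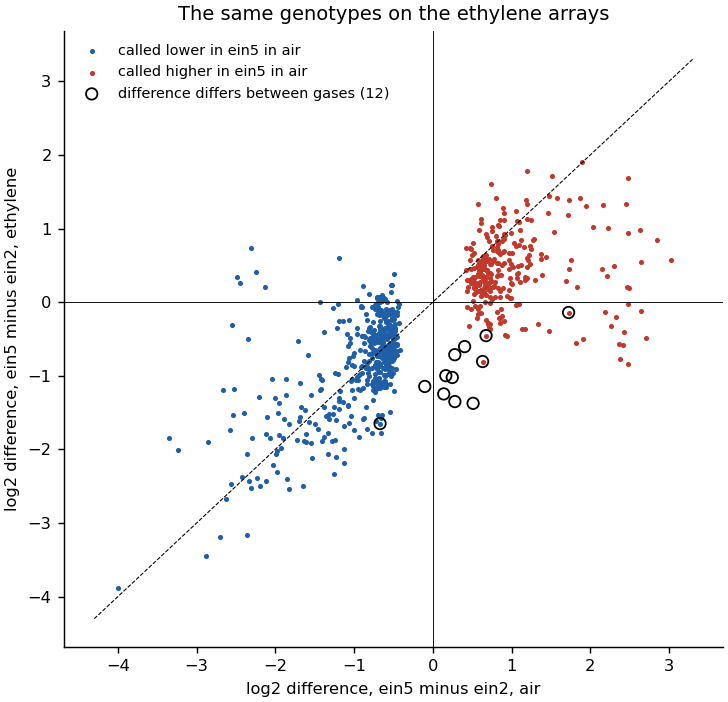
Log2 differences, ein5 minus ein2, in air (horizontal) and in ethylene (vertical) for the 722 probe sets called in air, and for the 12 probe sets (open circles) whose difference itself differed between the gases. The dashed line marks equal differences. The blue points lie mostly along the line, and the red points mostly below it.

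The difference between the genotypes was itself tested for a difference between gases, as an interaction term. It was called for 12 probe sets (0.0528%), all with a lower ein5-minus-ein2 difference in ethylene, while 2366 (10.4%) had an unadjusted p under 0.05. Leaving out any 1 of the 8 mutant arrays left 0 or 1 call. AT3G54580 was the 1 leading gene among the 12. Its ein5 excess of 1.72 in air was -0.14 in ethylene, where ein2 read 2569 and 2781 and ein5 2304 and 2549 (interaction -1.86, adjusted p = 0.0457).

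The wild-type comparisons share arrays with the one described here and are given only side by side. In air, ein5 differed from wild type at 1320 probe sets (5.80%) and ein2 at 616 (2.71%). The 37 LEA loci had a median of 0.25 for ein5 minus wild type, with 3 called, and 0.98 for ein2 minus wild type, with 17 called. Storage protein genes had medians of 1.30 and 2.17 in the same order, and oil body genes 0.05 and 1.62. For the 3 ethylene-induced genes the medians were -0.01 and -1.21. With the compared groups alone in the fit, the calls against wild type were 5 for ein5 and 265 for ein2.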

How the data were processed

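Per the labels, total RNA of 12 seedling samples was hybridised to single-colour ATH1 arrays. Every sample title ends in polyA, however, so the labels leave the RNA fraction unclear. The authors deposited 1 intensity per probe set and array, and per the series text images were quantified in GeneChip Suite 3.2 and filtered in GeneSpring 4.2. The deposited intensities had trimmed means (2% left out at each end) between 2480 and 2487 on all arrays. Following the series text, the median of all values above 10 was taken on each array, and the arrays were scaled to the mean of these medians. Then 16 was added and log2 taken. limma 3.58.1 in R 4.3.3 fitted 6 group means to all 12 arrays (lmFit, eBayes with a variance trend, 6 residual degrees of freedom). Scripts were tested on simulated data.

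Of 22746 probe sets, 13513 had 1 gene in the platform annotation, 503 several and 8730 were unlisted. Of the 13513, 13436 matched RefSeq's TAIR10.1 table and 11933 carried a locus number only. Named genes were the 15 with the largest difference each way among called, non-overlapping, 1-gene probe sets with a mean of at least 200 in the higher group, plus up to 4 called members of each list, or the 2 brightest where none was called. Further list members and genes outside the lists were named after their values were seen. Members and lists were chosen with earlier results of these data known. Of 34 lists 28 had a measured member. After the values were seen, 3 name patterns that caught wrong genes were corrected, the list of plastid genes was renamed and 6 lists were added. The added lists were the LEA loci, vacuolar processing enzymes, numbered class III peroxidases, SKU5-similar proteins, beta-glucosidases and hydroxyproline-rich glycoproteins. The mutated genes themselves are not reported here. Promoter motifs were not run. Alternatives covered quantile and deposited scaling, the added constant, a filter, the variance trend, the groups fitted, array weights, a replicate block and leaving out each array. Scan dates were not used here. The 2 arrays per group limit the precision.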

Additional observations from a re-analysis of the deposited data

Results flagged for a closer look

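The ein5 minus ein2 difference itself differed between ethylene and air at 12 probe sets, by an interaction term in the limma fit, and all 12 differences were lower in ethylene. The 3 largest with a single annotated gene were AT3G54580 (interaction -1.86), AT2G22510 (-1.63) and AT2G16630 (-1.04). AT2G22510 read 4399 and 4812 in ein2 and 5819 and 5370 in ein5 in air, where it was not called, and 6562 and 7521 against 2724 and 2768 in ethylene. AT2G16630 read 5832 and 5562 against 5382 and 5230 in air, also without a call, and 5782 and 6785 against 2931 and 2721 in ethylene. The arrays of the genotypes did not overlap in either gas for these genes. In air ein5 was the higher for AT2G22510 and the lower for AT2G16630. After ethylene the gap was wider for both genes, with ein5 the lower.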

How the results depend on the processing

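Of the 61 named probe sets called in air, 16 kept their call under all 20 alternatives, 10 of them lower in ein5 (among them AT2G25890, AtLEA4-1, BGLU19 and BETA-VPE) and 6 higher (RTE1, ARL, sks16, AT3G54580, AT1G65570 and AT1G50060), and none of the 61 changed direction. The 722 calls of ein5 against ein2 in air became 124 without the variance trend and 1681 with array weights. Leaving out 1 array gave 117 to 1246: 476 without ein2 ethylene replicate 1, and 1245 and 1246 without wild-type ethylene replicates 1 and 2, beside those given above. In ethylene the 2318 calls became 819 and 3689 in the same order, and 647 to 3319 with 1 array left out, the lower values being 1016 and 647 without ein2 ethylene replicates 1 and 2 and 796 and 952 without ein5 ethylene replicates 1 and 2.

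The 12 interaction calls became 4 with quantile normalization, 7 as deposited, 4 with an added constant of 64, 36 after the filter on low values, 0 without the variance trend (limma, with 2017 at an unadjusted p under 0.05), 301 with the compared groups alone and 194 with array weights. They became 0 to 88 with 1 array left out: 41 and 44 without wild-type air replicates 1 and 2, 88 and 86 without wild-type ethylene replicates 1 and 2, 1 without ein2 air replicate 2, and 0 without each of the other 7 mutant arrays, where 1667 to 2110 had an unadjusted p under 0.05. For ein5 against wild type in air, 1320 calls became 18 without the trend, 5 with the compared groups alone, and 46 to 2197 with 1 array left out (replicates 1 and 2 in turn: ein5 air 807 and 46, ein2 air 865 and 867, wild-type ethylene 2196 and 2197, wild-type air 834 and 641). For ein2 against wild type in air, 616 became 123 without the trend, 265 with the compared groups alone, and 160 to 986 with 1 array left out (ein2 air 160 and 198, wild-type ethylene 986 and 979, wild-type air replicate 2 359). The LEA loci lower in ein5 numbered 10 without the trend. The causes were not tested.

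Same-numbered arrays of different groups did not deviate together: over 15 pairs of groups the correlation of their deviations ran from -0.04 to 0.07. The numbers therefore do not pair the samples. With the replicate block there were 695 calls in air, 2268 in ethylene and 4 for the interaction. With 2 arrays per group, dim probe sets carried the largest errors.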
